A study of Homo sapiens with 8 samples.

Results

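The 10 genes followed here build, coat and break down stores of neutral lipid, and their values were taken from a deposited table of gene counts from intestinal and colorectal cancer (CRC) cell lines. The genes were PLIN2, PLIN3, HILPDA, LPIN1, PNPLA2, DGAT1, DGAT2, FABP1, FABP5 and AGPAT2. They were chosen by symbol from their known roles, with earlier results of these data known. Shares of all genes set beside counts of these 10 are therefore a description and no test. All 10 were found among the 54261 genes of the table. RNA from 8 libraries had been sequenced after removal of ribosomal RNA. The labels named NCM460 and HIEC6 as normal human intestinal epithelial lines, both untreated. DLD1, HCT116 and HCT8 were CRC lines, each with 1 untreated library and 1 library under hypoxia, that is, low oxygen. All cells were at passage 5, in medium with 10% fetal bovine serum at 37°C and 5% CO2. Every line stood for 1 library per treatment, so the replicates of a group were different lines. The oxygen level, the length of the hypoxia and the purpose of the hypoxia libraries were not given in the sources used here.

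Cells store surplus fatty acids as triglyceride, made stepwise from glycerol 3-phosphate by acyltransferases such as AGPAT2, by the phosphatidate phosphatase LPIN1, and by DGAT1 and DGAT2, which add the last fatty acid. The triglyceride is kept in lipid droplets, whose surface carries perilipins (PLIN2, PLIN3), and is broken down by the lipase PNPLA2, which the small droplet protein HILPDA inhibits. FABP1 and FABP5 carry fatty acids in the cytoplasm. HILPDA and PLIN2 are known targets of the hypoxia-inducible factors, transcription factors that bind a short core sequence in DNA when oxygen is low.

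That core, ACGTG or GCGTG, was searched on both strands in the 250 bases before the transcription start of the genes with a RefSeq promoter window (GRCh38.p14). Of the 10 genes, 6 were searched. HILPDA and DGAT2 had no window here. DGAT1 and FABP5 were left out of the search, so nothing is said of their promoters. Over all promoters, 43.2% of 35116 windows held at least 1 match, 19.4% at least 2, 7.76% at least 3 and 3.22% at least 4. The PLIN2 window held 4 matches, of which the last pair was 1 palindromic CACGTG read on both strands. The PLIN3 window held 3 matches, the AGPAT2 window held 2, and 1 of the 3 LPIN1 windows held 1. The windows of PNPLA2 and FABP1 held none, which says only that these letters are not in those bases. The 4 genes with a match had higher CPM under hypoxia in 3 of 3 lines. So did PNPLA2, which had no match, and HILPDA, which had no window. For AGPAT2 the difference in HCT116 was within counting error by column total. Whether a match goes with higher CPM was not tested. The stretches of sequence come from the 4 genes with a match. Each is 30 bases, 5′ to 3′ on the strand of the gene, with the core in capitals, and a match is a description and not a binding site. They lie, in order, at chr9:19127595-19127624 (-), chr9:19127543-19127572 (-), chr19:4867870-4867899 (-), chr2:11724179-11724208 (+) and chr9:136687639-136687668 (-).
PLIN2, 120 bases before the start: gagggcgccgggACGTGcccgagggtgaca
PLIN2, 68 bases before the start: ctgccgcgggtCACGTGctgcggaggcttg
PLIN3, 220 bases before the start: tggctgggacagGCGTGgtccaagagtgct
LPIN1, 124 bases before the start: ggctggtctcctGCGTGccccctcctgaaa
AGPAT2, 199 bases before the start: tgtggggagggaGCGTGgaggggaggtccg

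The libraries held 45519306 to 57374239 counts, so that 3 counts, taken as the floor, were at most 0.0659 counts per 1000000 of the column total (CPM). Some libraries stood apart from their labels or groups. HIEC6 had 0.176 CPM of EPCAM, a surface protein of epithelia, where the other untreated lines had 275.1 to 651.3 CPM, and it had 1223 CPM of the mesenchymal filament gene VIM, where they had 1.03 to 8.62 CPM. NCM460 correlated with untreated HCT116 at r = 0.994 over all 54261 genes (log2(CPM + 1)) and with HIEC6, its own group, at 0.924. Of the 10 intestinal epithelial markers as a list, 6 in HIEC6 and 7 in NCM460 were above 3 counts, against 6 to 10 in the untreated CRC lines. They summed to 8019 CPM in HIEC6 and 5387 CPM in NCM460, within the 4551 to 11340 CPM of the untreated CRC lines, and in HIEC6 the keratin genes KRT8 (4290 CPM) and KRT18 (3725 CPM) made up nearly all of the sum. The markers KRT20, CDX1 and LGALS4 were at 0 in both normal lines. They were also near 0 in untreated HCT116, with 1, 0 and 0 counts. Untreated DLD1 had 39, 0 and 2 counts of them, and untreated HCT8 had 10, 1335 and 91. Among markers of other cells, adipocyte markers summed to 0.406 to 17.4 CPM with LEP at 0 throughout, hepatocyte markers to at most 0.264 CPM and immune markers to 1.18 to 20.7 CPM. Nearly all of the immune sum was CD68. Neural markers summed to 13.4 to 279.4 CPM, mostly from MBP and SYT1. MBP was at 10.8 to 117.5 CPM. SYT1 was at 68.8 to 159.4 CPM in NCM460 and both HCT116 libraries and at most 1.43 CPM elsewhere. The untreated and hypoxia CRC libraries shared no run label, so run and treatment cannot be told apart. Bulk counts also cannot tell fewer expressing cells from less RNA per cell. Oxygen-responsive genes were measured as a check of the labels. Of 13 genes of a hypoxia check list, 12 had a measurable ratio in all 3 CRC lines. BNIP3 did not, with 0 counts in untreated DLD1 and HCT8. The 12 were higher in the hypoxia library in each line, against 16.2% of the 21045 genes tested. The list was chosen with earlier results of these data known, so this is a description and no test.

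HILPDA, the inhibitor of PNPLA2, had the largest difference of the 10 genes between hypoxia and untreated libraries, averaged over the lines. It is a gene of 2 exons at chr7:128095903-128098472 (+, ENSG00000135245, GRCh37). Without treatment DLD1 had 25.2 CPM of it, HCT116 had 17.6 CPM and HCT8 had 23.0 CPM. Under hypoxia DLD1 had 48.0 CPM, HCT116 had 183.1 CPM and HCT8 had 85.7 CPM. The lowest hypoxia library therefore lay above the highest untreated one, and the lines, which were close to each other before, were spread apart after. HILPDA was the 1 gene of the 10 whose CRC groups did not overlap in this direction, against 3.06% of the 21045 genes tested, and 0 of the 10 had every hypoxia library below the untreated ones, against 6.44%. On the TMM scale (trimmed mean of M-values, which centres most genes on no change) 4 of the 10 did not overlap, HILPDA, LPIN1, PNPLA2 and AGPAT2, against 4.26% of all genes. Within lines the hypoxia library held 1.91 times the untreated CPM for DLD1, 10.4 times for HCT116 and 3.73 times for HCT8. On the log2 scale the differences were 0.93, 3.38 and 1.90, with 95% intervals of 0.83 to 1.03, 3.29 to 3.48 and 1.81 to 1.99. These intervals, here and for the other genes, cover counting error only. They did not overlap, so the lines differed from each other by more than counting error. The group means were 105.6 ± 69.7 CPM under hypoxia, 21.9 ± 3.92 CPM in untreated CRC lines (SD, n = 3 each). The normal lines had a mean of 18.7 ± 13.8 CPM (SD, n = 2). The normal and untreated CRC groups overlapped, since HIEC6 had 8.94 CPM and NCM460 28.5 CPM. An exact two-sided permutation test over the 6 CRC libraries gave p = 0.1, the smallest that 3 against 3 libraries can give. This test, here and below, takes no account of the pairing by line.

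LPIN1, which makes diacylglycerol from phosphatidate and also acts in the nucleus as a transcriptional coactivator, and PNPLA2, the adipose triglyceride lipase, were higher in the hypoxia library of each line by smaller and more even amounts. LPIN1 (chr2:11817721-11967535, +, GRCh37) was at 33.8, 27.1 and 46.2 CPM in untreated DLD1, HCT116 and HCT8 and at 52.9, 42.8 and 96.5 CPM under hypoxia. Its log2 differences were 0.65 (0.56 to 0.73), 0.66 (0.56 to 0.76) and 1.06 (0.99 to 1.13). HCT8 stood highest both before and after, and by column total, though not on the TMM scale, the HCT116 hypoxia library stayed below untreated HCT8. PNPLA2 (chr11:818914-825573, +, GRCh37) was at 94.5, 58.6 and 84.2 CPM without treatment and at 133.1, 91.1 and 137.0 CPM under hypoxia. The log2 differences of PNPLA2 were 0.49 (0.44 to 0.55), 0.64 (0.57 to 0.70) and 0.70 (0.65 to 0.76). By column total the groups overlapped through HCT116, whose hypoxia library lay below untreated DLD1, and on the TMM scale they did not overlap. For both LPIN1 and PNPLA2 the exact permutation test gave p = 0.2.

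**Figure D1:**
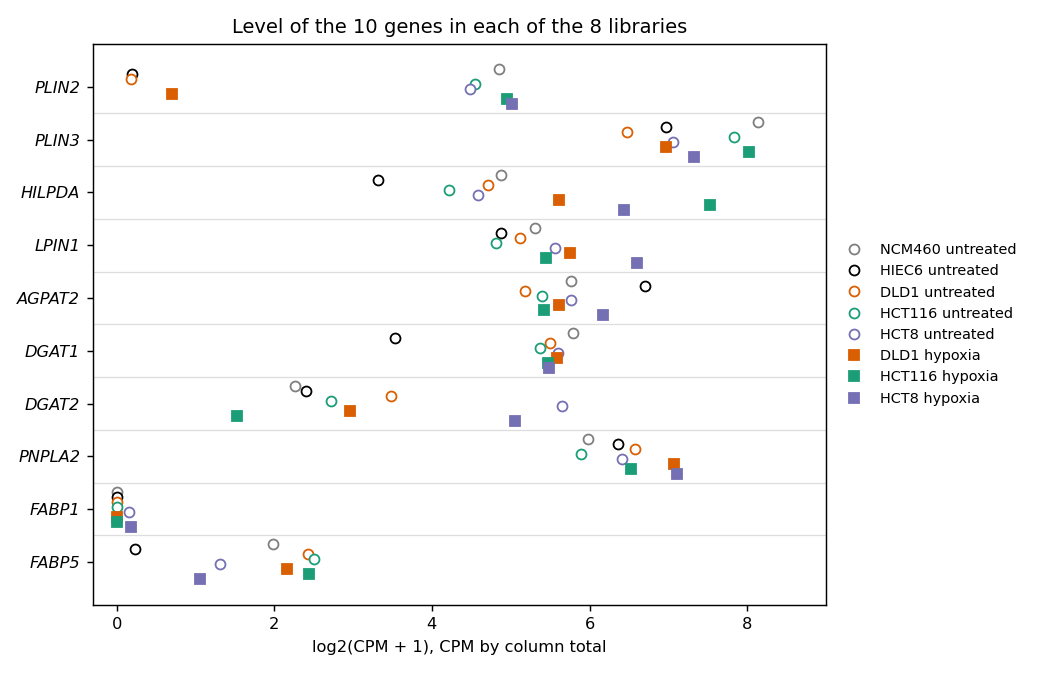
Level of the 10 genes in the 8 libraries, as log2(CPM + 1) on the horizontal axis, 1 row per gene, with open circles for untreated and filled squares for hypoxia libraries. In HILPDA the 3 squares (48.0 to 183.1 CPM) lie to the right of all 5 circles (8.94 to 28.5 CPM), and in PLIN2 the circles of HIEC6 and DLD1 lie near 0, far from the other 3.

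The perilipins differed more by line than by treatment. PLIN2, the droplet coat protein that most cell types use, had 7 counts in untreated DLD1 and 8 in HIEC6, or 0.137 and 0.141 CPM. It stood at 22.3 CPM in HCT116, 21.4 CPM in HCT8 and 27.8 CPM in NCM460, so its highest library (31.3 CPM, HCT8 under hypoxia) was 229.2 times its lowest. The gene lies at chr9:19108373-19149288 (-, ENSG00000147872, GRCh37). Under hypoxia PLIN2 had 0.627 CPM in DLD1 (36 counts), 29.9 CPM in HCT116 and 31.3 CPM in HCT8. Each hypoxia library was above the untreated library of its line, with log2 differences of 2.20 (1.01 to 3.61) in DLD1, 0.42 (0.31 to 0.53) in HCT116 and 0.55 (0.43 to 0.66) in HCT8. The largest ratio of PLIN2, 4.59 in DLD1, was the one from the fewest counts, and DLD1 under hypoxia stayed far below both libraries of HCT116 and of HCT8. PLIN3, a perilipin that moves from the cytosol to new droplets, (chr19:4838353-4867706, -, GRCh37) was highest in NCM460 at 281.6 CPM. It was at 88.3, 225.9 and 132.6 CPM in untreated DLD1, HCT116 and HCT8 and at 123.9, 258.2 and 159.3 CPM under hypoxia. Its log2 differences were 0.49, 0.19 and 0.26, with no interval reaching 0, and the order of the lines was kept.

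Per kilobase of exons, on which genes can be set side by side, PLIN3 was the most abundant perilipin in all 8 libraries, at 32.2 to 102.8 CPM per kb. PLIN2 had 4.28 to 6.25 CPM per kb in NCM460, HCT8 and HCT116 and 0.0273 to 0.125 CPM per kb in HIEC6 and DLD1. PLIN5, a perilipin of oxidative tissues, followed the same division between libraries, with 0.746 to 1.14 CPM per kb in NCM460, HCT8 and HCT116 and at most 0.0203 CPM per kb in HIEC6 and DLD1. PLIN4 did not, since its highest level, 6.35 CPM per kb, was in HIEC6, where VIM was also highest and EPCAM near 0. PLIN1, the perilipin of fat cells, was at most 0.321 CPM per kb. Among the 10 genes, HILPDA had the largest difference between the CRC group means on this scale, with 51.0 ± 33.7 CPM per kb under hypoxia and 10.6 ± 1.89 CPM per kb in untreated CRC lines (SD, n = 3 each).

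**Figure D2:**
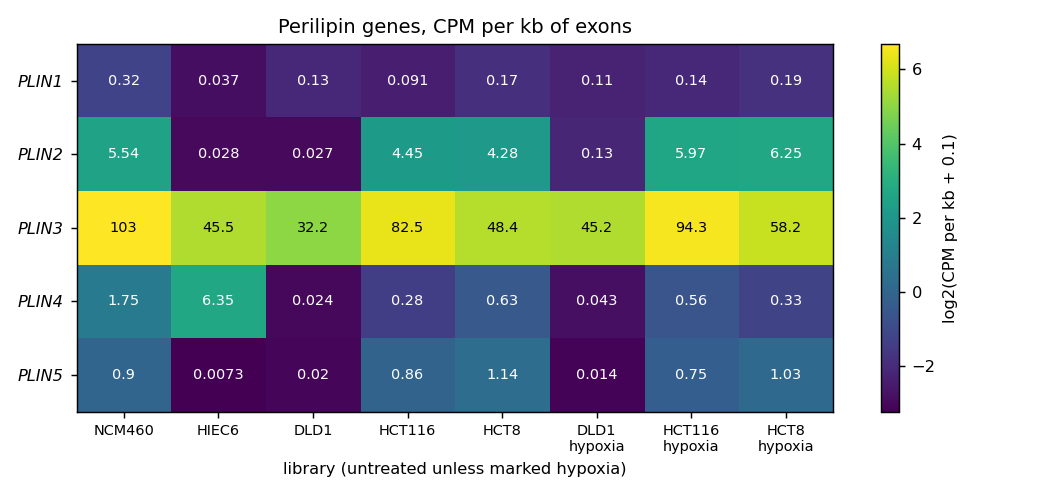
CPM per kb of exons for the 5 perilipin genes (rows) in the 8 libraries (columns), with the value printed in each cell and colour by log2(CPM per kb + 0.1). PLIN3 fills the brightest row at 32.2 to 102.8 CPM per kb, and the PLIN2 row has its dark cells in HIEC6 and in both DLD1 libraries.

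The enzymes of triglyceride synthesis had differences of both signs. DGAT2, the acyltransferase tied to newly made fatty acids (chr11:75470557-75512580, +, GRCh37), was lower in the hypoxia library of each line. It was at 10.2, 5.61 and 49.1 CPM in untreated DLD1, HCT116 and HCT8 and at 6.80, 1.90 and 32.2 CPM under hypoxia. The log2 differences of DGAT2 were -0.59 (-0.78 to -0.40), -1.57 (-1.90 to -1.24) and -0.61 (-0.70 to -0.51). HCT8 carried most of the DGAT2 counts in both states, so the groups overlapped widely, and the exact permutation test, which ignores the pairing by line, gave p = 0.6. With the line as a block the edgeR fit gave an unadjusted p of 0.0104 and an adjusted p of 0.146, and DESeq2 an adjusted p of 0.0361. DGAT1, the other enzyme of that step, lay within 40.3 to 47.4 CPM in all 6 CRC libraries. By column total its log2 differences were 0.09, 0.11 and -0.12, and on the TMM scale that of HCT116 was 0.47. AGPAT2, which makes phosphatidate (chr9:139567595-139581909, -, GRCh37), was at 35.3, 41.1 and 53.4 CPM without treatment and at 47.8, 41.8 and 70.9 CPM under hypoxia. By column total its log2 differences were 0.44 in DLD1, 0.02 in HCT116 (-0.06 to 0.11) and 0.41 in HCT8. The HCT116 difference was thus within counting error by column total, but on the TMM scale it was 0.38. Of the DGAT1 exons, 3.32% overlapped HSF1 on the opposite strand, and whether the counting used strand was not given, so the counts of both genes are uncertain there. The larger exon overlaps were with long noncoding genes not found by name among the counted genes. On the opposite strand they covered 18.3% of PLIN3 and 10.5% of PNPLA2 exons. On the same strand they covered 10.7% of DGAT1 exons, and 8.45% and 8.99% of HILPDA exons.

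The fatty acid carriers were low. FABP1, the carrier of liver and absorptive intestine, had 6 counts in each HCT8 library (0.114 CPM untreated and 0.132 CPM under hypoxia). It had 0 in the other 6, where the upper 95% counting limit was at most 0.0750 CPM. FABP5, a carrier of epidermis and many tumours, was at 4.37, 4.67 and 1.48 CPM in untreated DLD1, HCT116 and HCT8 and at 3.49, 4.44 and 1.08 CPM under hypoxia. Its log2 differences were -0.33 (-0.61 to -0.05), -0.07 (-0.33 to 0.19) and -0.46 (-1.01 to 0.07), of which DLD1 alone was beyond counting error. FABP5 has near-identical copies: FABP5P7 had 130 counts where FABP5 had 244 in untreated HCT116, and 23 where it had 49 in HCT8 under hypoxia. The copies may share reads, so the level of FABP5 is uncertain.

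Counted over the 3 lines, 6 of the 9 genes with a value in each were higher under hypoxia in 3 of 3 lines (PLIN2, PLIN3, HILPDA, LPIN1, PNPLA2 and AGPAT2), against 16.2% of all genes tested. DGAT2 and FABP5 were lower in 3 of 3 lines, against 26.4% of all genes. With TMM scaling the first count was again 6, against 22.3% of all genes, and the second was 1, against 21.3%, since FABP5 in HCT116 turned from -0.07 to 0.28. That scaling added 0.36 to every log2 difference in HCT116, where the median of all genes by column total was -0.33, and at most 0.03 in the other lines. At 2-fold or more, PLIN2 was the 1 gene higher in DLD1 (11.2% of all genes), HILPDA the 1 higher in HCT116 (12.4%), and HILPDA and LPIN1 the 2 higher in HCT8 (14.4%). For the 2-fold shares, all genes are those with at least 10 counts in either library of the line. PLIN2 passed that filter in DLD1 only through its hypoxia library, with 36 counts against 7 untreated. DGAT2 in HCT116 was the 1 gene lower by that much (25.7% of all genes in that line), with 0 in DLD1 (5.90%) and 0 in HCT8 (9.81%). On the TMM scale LPIN1 joined HILPDA in HCT116 at 1.02, so that 2 genes were higher there (17.2% of all genes), and DGAT2 was again the 1 lower (16.9%).

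**Figure D3:**
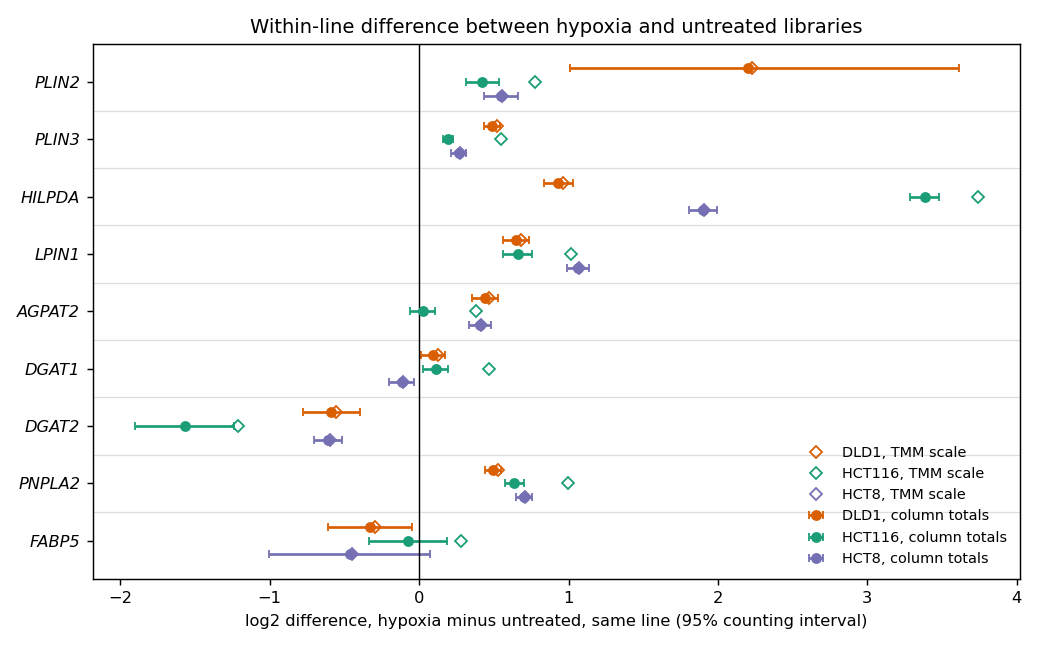
Difference between the hypoxia and the untreated library of the same line for 9 genes on the log2 scale, with filled points by column total (bars: 95% counting interval) and open diamonds on the TMM scale. HILPDA reaches 3.38 in HCT116, all DGAT2 points lie left of 0, and the diamonds of HCT116 lie 0.36 to the right of its points.

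The comparison of the 3 hypoxia with the 3 untreated CRC libraries was then tested over all genes. Without regard to line, edgeR's quasi-likelihood test called 0 of 21045 genes at an adjusted p under 0.05 (0% of genes), and 0 of the 9 genes of interest that passed the filter on low counts, which FABP1 did not pass. At an unadjusted p under 0.05 it held 607 genes (2.88%) and 3 of the 9, HILPDA, LPIN1 and PNPLA2. The log2 fold changes were 2.53 for HILPDA (SE 0.63), 0.94 for LPIN1 (SE 0.30) and 0.72 for PNPLA2 (SE 0.24), each with an adjusted p of 0.9999. DESeq2 called 55 genes in this design (0.261%), 50 higher (0.238%) and 5 lower (0.0238%), and again 0 of the 9, with HILPDA nearest at an adjusted p of 0.0587. The untreated and hypoxia libraries are paired by line, and with the line as a block edgeR called 200 genes (0.950%), 156 higher (0.741%) and 44 lower (0.209%). None of the 9 was among them, although 7 of the 9 and 18.5% of all genes had an unadjusted p under 0.05. LPIN1 came nearest, at 0.92 (SE 0.18, edgeR adjusted p = 0.0669), followed by HILPDA at 2.18 (SE 0.47, adjusted p = 0.0779) and PNPLA2 at 0.75 (SE 0.18, adjusted p = 0.0969). DGAT2 was at -0.77 (SE 0.23, adjusted p = 0.146) and PLIN2 at 0.95 (SE 0.30, adjusted p = 0.162) in that edgeR fit, and PLIN3, AGPAT2, DGAT1 and FABP5 had adjusted p of 0.211 to 0.865. The median log2 fold change of the 9 was 0.45, against 0.03 over all genes tested.

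The call depended on the tool and on single lines. DESeq2 with the line as a block called 1666 genes (7.92%), 955 higher (4.54%) and 711 lower (3.38%), and 5 of the 9 were among them. These shares are of all 21045 genes entered. DESeq2 left some of those without an adjusted p, so the shares among the genes it adjusted are higher. In that fit HILPDA (2.21, adjusted p = 0.000317), LPIN1 (0.95, adjusted p = 0.000304), PNPLA2 (0.77, adjusted p = 0.00557) and PLIN2 (1.02, adjusted p = 0.0413) rose, and DGAT2 fell (-0.75, adjusted p = 0.0361). With edgeR and the block, leaving out HCT116 brought HILPDA (1.42, adjusted p = 0.00864) and LPIN1 (0.86, adjusted p = 0.0279) past the threshold, where 3.78% of genes were called and 2.36% were called higher. Without DLD1, HILPDA alone of the 9 was called (2.83, adjusted p = 0.0212), where 1.47% of genes were called and 0.894% called higher, and without HCT8 none of the 9 and 6 genes in all were called. As sums over the marker list, mesenchymal genes were at 25.4 to 170.9 CPM under hypoxia and 12.7 to 41.6 CPM in untreated CRC lines, with VIM at 0.220 to 20.6 and 1.03 to 6.20 CPM; their part in these differences was not tested.

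Genes that act beside these 10 were taken from 7 lists of lipid genes. Of 94 genes listed, 80 were tested, and edgeR with the line as a block called 0 of them higher and 0 lower, with a median log2 fold change of 0.06 against 0.03 over all genes. DESeq2 with the block called 10 of the 80 higher and 6 lower, in a fit where 4.54% of all genes entered were called higher and 3.38% lower. Among the 80, genes with few counts such as PLIN1, G0S2 and MTTP had no adjusted p in that DESeq2 fit and could not be called. By list the edgeR medians were 0.01 for droplet coat and assembly (15 of 17 tested), -0.09 for glycerolipid and steryl ester synthesis (14 of 16), 0.41 for lipolysis and its regulators (9 of 9), 0.31 for fatty acid uptake, binding and activation (16 of 21), -0.12 for fatty acid oxidation (15 of 15), 0.21 for lipid-sensing transcription factors (9 of 9) and 0.53 for lipoprotein assembly (2 of 7). The hypoxia check list, by the same test, had 9 of 13 genes called higher and a median of 3.26. In it CA9, a carbonic anhydrase, rose by 7.0 on the log2 scale (adjusted p = 0.00447) and ANGPTL4, an inhibitor of lipoprotein lipase, by 5.38 (adjusted p = 0.0113), while VEGFA (1.32, adjusted p = 0.104) and SLC2A1 (1.81, adjusted p = 0.0941) did not pass. HILPDA, at 2.18, ranked 440th of the 21045 genes by log2 fold change in this fit.

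The known regulators of PNPLA2 had differences of both signs. Within-line differences of these list genes are by column total, and TMM scaling adds 0.36 to each in HCT116. ABHD5, the coactivator that PNPLA2 needs for full activity, was lower in each line, with log2 differences of -0.72 in DLD1, -1.53 in HCT116 and -0.79 in HCT8 (-0.88, edgeR with block, adjusted p = 0.0876; called by DESeq2 with block, adjusted p = 0.00228). G0S2, another inhibitor of PNPLA2, had 9 and 7 counts in untreated and hypoxia DLD1, 0 and 2 in HCT116, and 56 and 145 in HCT8. It was thus measurable in HCT8 above all, where its log2 difference was 1.58 (1.13 to 2.05). MGLL, the lipase that ends triglyceride breakdown, was higher in each line by 0.86, 1.04 and 0.97 (1.09 in edgeR with block, adjusted p = 0.0649; called by DESeq2 with block, adjusted p = 0.000263) and was named after its values were seen. In that edgeR fit 6 of the 9 genes of the lipolysis list were positive and 3 negative. In other lists METTL7A (1.56, edgeR adjusted p = 0.05004) and SLC27A2 (-1.13, edgeR adjusted p = 0.0508) lay nearer the threshold than MGLL. GPAM, a mitochondrial acyltransferase of the first step of triglyceride synthesis, was lower in each line, by log2 differences of -0.59, -1.88 and -0.55 (-0.87, edgeR with block, adjusted p = 0.127; called by DESeq2 with block, adjusted p = 0.0289).

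Uptake and control genes varied by line. VLDLR, a lipoprotein receptor, was at 14.5 CPM in untreated and 62.5 CPM in hypoxia HCT8, a log2 difference of 2.11 (1.99 to 2.22), but at -0.10 in DLD1, and it had 1 count in each HCT116 library. CIDEC, which fuses lipid droplets in fat cells, went from 2 to 98 counts in HCT8 and had at most 6 counts in the other CRC libraries, too few to be tested. CD36, a fatty acid transporter, had at most 12 counts in any library. PPARG, a receptor that drives fat storage genes, was higher in each line, by 0.27, 0.46 and 1.46 (0.86, edgeR with block, adjusted p = 0.134; called by DESeq2 with block, adjusted p = 0.0319). CPT1A, the entry step of fatty acid oxidation in mitochondria, had log2 differences of 0.13 in DLD1, -0.50 in HCT116 and -0.37 in HCT8 (edgeR with block, adjusted p = 0.782). Within-line differences in this paragraph are also by column total, and TMM scaling adds 0.36 to each in HCT116.

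**Figure D4:**
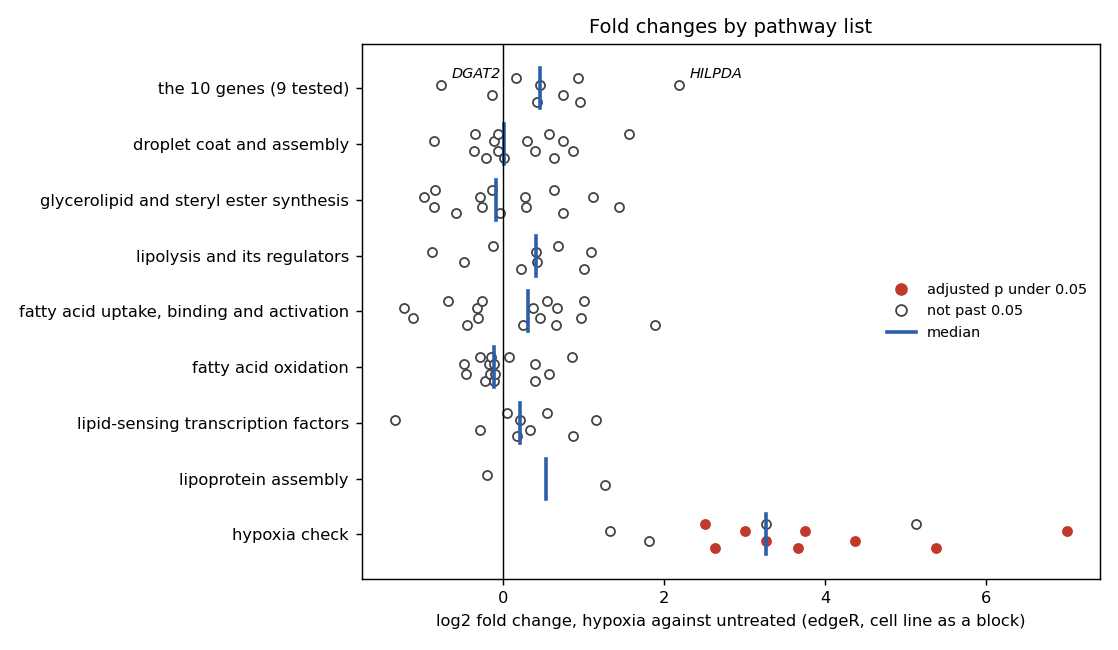
Fold changes of hypoxia against untreated CRC libraries (edgeR with the cell line as a block, log2 scale) for the 9 tested genes and the genes of 7 lipid lists and the hypoxia check list, 1 circle per gene, filled where the adjusted p is under 0.05 and with a bar at each median. Filled circles appear in the hypoxia check list alone (9 of 13), and HILPDA at 2.18 lies to the right of every lipid list gene tested.

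The next comparison asked how storage genes differ between CRC and normal lines without treatment. Over the 5 untreated libraries edgeR called 0 of 19964 genes (0%), 0 of the 9 tested genes among them, with 542 genes (2.71%) at an unadjusted p under 0.05. DESeq2 called 143 genes (0.716%) and also 0 of the 9. AGPAT2 was the 1 gene of the 9 with an unadjusted p under 0.05 in edgeR, at -1.08 (SE 0.42, adjusted p = 0.999). It stood at 103.2 CPM in HIEC6 and 53.4 CPM in NCM460, against 35.3 to 53.4 CPM in the CRC lines, so that HCT8 and NCM460 were alike. DGAT2 was at 3.82 CPM in NCM460 and 4.28 CPM in HIEC6, below all 3 untreated CRC lines (5.61 to 49.1 CPM), with a log2 fold change of 2.15 (SE 1.05, adjusted p = 0.999). LPIN1 and PNPLA2 were at 38.7 and 61.9 CPM in NCM460 and at 28.3 and 81.5 CPM in HIEC6, inside the range of the untreated CRC lines.

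The 2 normal lines had different levels of several of these genes, and directions turned with the line used. In these fits the normal arm is 1 library, so the standard errors and p-values rest on the spread of the CRC lines alone and assume that the lone library varies like them. PLIN2 was at -1.04 on the log2 scale against NCM460 alone and at 6.41 (SE 3.48, edgeR adjusted p = 0.431) against HIEC6 alone. DGAT1, at 54.1 CPM in NCM460 and 10.6 CPM in HIEC6, was at -0.41 against the first and 1.78 (SE 0.35, edgeR adjusted p = 0.208) against the second. HILPDA was at -0.49 and 1.02, and FABP5, with 146 counts in NCM460 and 10 in HIEC6, at 0.17 and 4.07. DGAT2, at 2.33 and 2.0, and AGPAT2, at -0.42 and -1.53, kept their direction against both. The size for DGAT2 rested on HCT8, without which it was 0.82 against both normal lines. HIEC6 lacked EPCAM and NCM460 resembled HCT116, as given above, and their part in these differences was not tested.

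**Figure D5:**
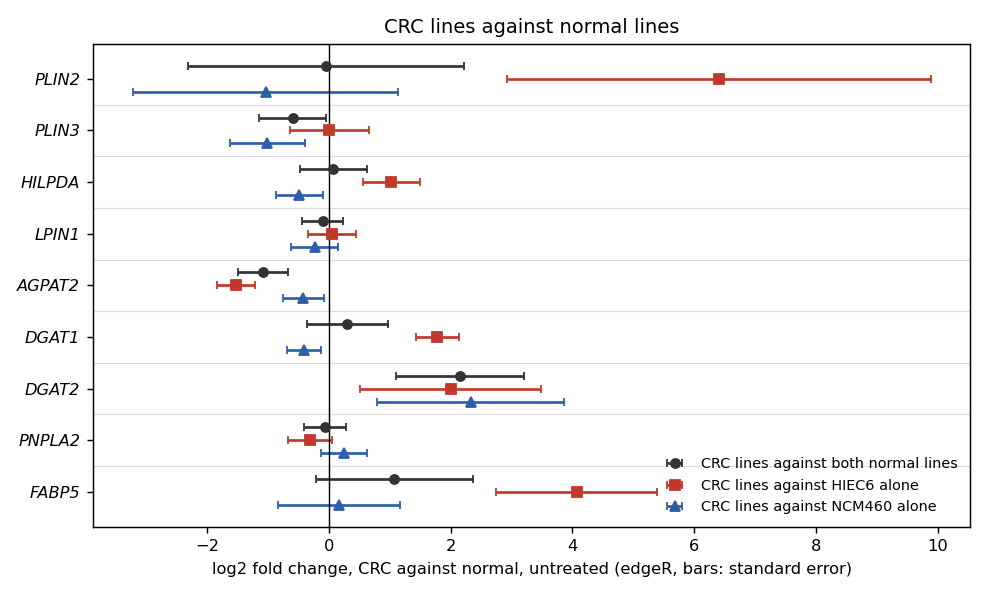
Fold changes of the untreated CRC lines against both normal lines, HIEC6 alone and NCM460 alone for 9 genes (edgeR, log2 scale; bars: standard error). The 3 estimates of DGAT2 lie between 2.0 and 2.33, and those of PLIN2 between -1.04 and 6.41.

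Each gene was also set beside the genes of most similar pattern, by Pearson correlation of log2(CPM + 1) over the 8 libraries among 21647 genes. These correlations describe 8 libraries from 5 lines and share each library's depth and run, so they carry no test. HILPDA was most like FAM210A (r = 0.982), LOC102724660 (0.981) and RBPJ (0.976), whose levels in HCT116 under hypoxia were likewise their highest. PLIN2 was most like CAPG (0.997), CACNA2D2 (0.996) and CDS2 (0.994), all lowest in HIEC6 and both DLD1 libraries. DGAT1 was most like KDF1 (0.995), MAPK13 (0.994) and F11R (0.991), and FABP5 like its copy FABP5P7 (0.998). For PLIN3, LPIN1, PNPLA2, DGAT2 and AGPAT2 the nearest genes were PDPR (0.983), SP140 (0.974), EFHD2 (0.977), NEMP2 (0.987) and GATA2 (0.972).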

How the data were processed

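The authors deposited their data as raw read counts, in 1 table of 54261 genes by 8 libraries, and all columns were used. RNA had been depleted of ribosomal RNA and sequenced on an Illumina instrument. The study's methods name GRCh37.p13, whereas the submitters' processing notes name GRCh38 and HISAT2 2.0.4; the counting tool, its annotation, its use of strand and its treatment of reads with several matches were not given in the sources used here, so near-identical copies and overlapping genes are uncertain.

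Levels were given as counts per 1000000 of the column total (CPM) with the column totals of 45519306 to 57374239. Groups came from the sample labels. Tests used edgeR 4.0.16 (quasi-likelihood, TMM, Benjamini-Hochberg adjustment over all genes tested, threshold 0.05) in R 4.3.3. A gene entered a fit if 2 or more of its libraries had 10 or more counts. Adjusted p values in the text come from these fits or, where named, from DESeq2 1.42.0. Shares called by DESeq2 are of all genes entered, also those it left without an adjusted p. A standard error is the log2 fold change over the root of its F statistic. Alternatives were DESeq2, limma-trend (limma 3.58.1), upper-quartile and column-total scaling, other filters on low counts, all 8 libraries in 1 fit, the line as a block, and each library or line left out. Same-line untreated and hypoxia libraries come from the same cell line and are paired. Deviations of untreated and hypoxia libraries from their group means correlated at 0.865 to 0.873 within lines and at -0.620 to -0.0979 between lines. Deviations from a group mean cancel out over its lines, so positive same-line values push the between-line values to be negative. The between-line values are therefore no separate evidence of pairing. Whether separate cultures were used is not stated, so p-values measure only the spread between these libraries. Intervals of ratios are conditional binomial. Exon lengths and GRCh37 positions came from GENCODE and promoter bases from RefSeq (GRCh38.p14). The fits were tested on simulated data.

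The members, the lipid lists, the hypoxia check list and the marker lists were chosen with earlier results of these data known. Beside the members, 8 list genes and 4 check genes were to be named whatever they showed, plus any list gene past the threshold in the edgeR fit with the line as a block (there were 0), and for each member the genes of most similar pattern.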

Additional observations from a re-analysis of the deposited data

Results flagged for a closer look

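In 3 genes of the lipid lists, 2 lines had opposite differences under hypoxia of at least 0.5 each on the log2 scale, by column total and by TMM, beyond counting error and with at least 10 counts in all 4 libraries. Genes with smaller opposite differences are not listed. The difference between the lines was not tested, since each line has 1 library per treatment. PLIN4, a perilipin, had a log2 difference of 0.99 in HCT116 (95 to 200 counts) and -0.92 in HCT8 (216 to 99 counts). FITM1, which takes part in droplet formation, was at 1.42 in DLD1 (12 to 36 counts) and -0.65 in HCT8 (76 to 42 counts). PNPLA3, a lipase related to PNPLA2, was at 1.60 in DLD1 (189 to 644 counts) and -0.93 in HCT116 (359 to 200 counts), and at 0.21 in HCT8.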

How the results depend on the processing

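The number of genes called under hypoxia was 0 without the line as a block, also with any 1 library left out, and 55 with DESeq2. With the replicate block (the line) it was 200, and with the block it was 215 with upper-quartile scaling, 172 by column total, 113 with limma-trend and 1666 with DESeq2. With the block and 1 line left out it ranged from 6 (without HCT8) through 292 (without DLD1) to 738 (without HCT116). Of the 9 genes tested, 5 were called with the block and DESeq2, and 0 to 2 with the block and 1 line left out; the remaining alternatives called 0. Between CRC and normal lines DESeq2 called 143 genes and edgeR 0, and there a replicate block joins different lines, pairs nothing and called 0.

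Under hypoxia, directions turned for genes with fold changes near 0 or spread by line. Without 1 library, the log2 fold change ranged from -0.14 to 0.99 for PLIN3, from -2.09 to 0.70 for DGAT2 and from -0.66 to 0.43 for FABP5, and FABP5 was also 0.024 with DESeq2, 0.023 with upper-quartile scaling and 0.0076 with 10 counts required in every library. With the block and without HCT116, DGAT1 was at -0.0072 (range with the block -0.0072 to 0.30). HILPDA ranged from 1.42 to 2.83, LPIN1 from 0.85 to 1.05 and PNPLA2 from 0.60 to 0.86 with the block and 1 line left out.

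Against the normal lines, leaving out 1 library gave ranges of -1.04 to 6.41 for PLIN2, -1.10 to 0.011 for PLIN3, -0.49 to 1.02 for HILPDA, -0.26 to 0.055 for LPIN1, -0.31 to 0.25 for PNPLA2, -0.41 to 1.78 for DGAT1 and 0.82 (without HCT8) to 2.59 for DGAT2. By column total, PLIN2 was at 0.070, LPIN1 at 0.091 and PNPLA2 at 0.14. PNPLA2 was at 0.038 with upper-quartile scaling and PLIN2 at 0.81 with limma-trend. The cause of these turns was not tested. Low counts limited FABP1, PLIN2 in DLD1 and HIEC6, and FABP5 in HIEC6 (10 counts), and FABP5 may share reads with its copies.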
